A study of Mus musculus with 6 samples.

Results

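The collagen chain genes were taken as all genes on the array whose symbol is Col, a type number, the letter a and a chain number, and 44 of the 19938 genes measured met that rule. They were 11 fibrillar chains, 6 chains of the basement membrane network, 3 chains of short-chain networks, 9 chains of FACIT collagens, 6 type VI chains, 2 multiplexins, 4 transmembrane collagens, the anchoring fibril chain Col7a1 and 2 others (Col26a1 and Col28a1). Renca is a mouse renal carcinoma line of BALB/c origin, and its cells were injected into BALB/c mice either under the skin (subcutaneous, n = 3) or into the outer kidney cortex (intrakidney, n = 3), with tumors removed on day 12. Each tumor came from its own mouse, its total RNA was hybridised to a whole-transcript mouse gene array, and all 6 tumors grew from the same cell line in hosts for which the labels name no other treatment, age or sex. The comparison asked whether the site of growth was reflected in tumor RNA, and every log2 fold change is intrakidney minus subcutaneous.

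Collagens are extracellular proteins wound from several chains, each encoded by its own gene. Fibrillar collagens such as types I, III and V form the fibers that give connective tissue and tumor stroma their strength, and FACIT collagens decorate those fibers. Type IV forms the sheets of basement membranes under epithelium and around vessels, and type VI forms beaded microfilaments around cells, assembled from the products of Col6a1, Col6a2 and a larger chain, most often that of Col6a3. Fibroblasts are the usual main source of types I, III and VI in solid tumors, and collagen-rich matrix is a known barrier to drugs and immune cells.

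The RNA was that of whole tumors, so fewer cells of a type and less RNA per cell cannot be told apart, nor can RNA of Renca cells and RNA of the host. The medians of all array rows lay between 7.08 and 7.11 on the log2 scale. Upper quartiles lay between 8.81 (subcutaneous tumor 3) and 8.91 (intrakidney tumor 1), and lower quartiles between 5.64 (intrakidney tumor 1) and 5.72 (subcutaneous tumor 3). Over genes, the 25th percentile was 5.87 in intrakidney tumor 1 and 5.95 to 6.10 in the other tumors. Genes of renal epithelium and Renca cells had a mean of 10.02 to 10.23 in intrakidney and 10.17 to 10.24 in subcutaneous tumors over 7 markers, of which Krt8, Krt18 and Pax8 differed by -0.086, -0.020 and 0.051 and Cdh1, the epithelial cadherin, by -0.52 (adjusted p = 0.209). Proximal tubule markers (8 genes, 0 past the threshold) averaged 6.14 to 6.31 under the skin, against 6.08 for intrakidney tumor 1, 6.66 for tumor 2 and 7.05 for tumor 3, so that tumors 2 and 3 stood above every subcutaneous tumor. Among the collagen chains, intrakidney tumor 1 had the lowest of the 6 values for 28 of 44, against 27.5% of all genes.

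The 3 chains that make up the common type VI molecule were the only collagen chains to pass the test over all genes, and all 3 fell in intrakidney tumors. Col6a1 and Col6a2 are next to each other on chromosome 10 and Col6a3 lies on chromosome 1. The stretches before their start sites are shown because these genes moved together, with that of the type I chain gene Col1a2 beside them, whose values were spread among intrakidney tumors. They are the 250 bases before the start from RefSeq's GRCm38.p6 table, which held a start for 35 of the 44 genes, at chr10:76726045-76726294 (minus strand), chr10:76623631-76623880 (minus strand, the outer of the starts listed), chr1:90843972-90844221 (minus strand) and chr6:4505368-4505617 (plus strand). Capitals mark matches, on either strand, to the GC box (GGGCGG), the CCAAT box (CCAAT) and the TATA box (TATAAA), motifs that do not overlap one another.
Col6a1: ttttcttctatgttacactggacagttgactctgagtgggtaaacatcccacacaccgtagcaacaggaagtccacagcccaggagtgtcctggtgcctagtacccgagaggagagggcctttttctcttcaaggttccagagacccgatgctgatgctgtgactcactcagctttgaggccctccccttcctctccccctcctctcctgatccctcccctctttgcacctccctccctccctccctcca
Col6a2: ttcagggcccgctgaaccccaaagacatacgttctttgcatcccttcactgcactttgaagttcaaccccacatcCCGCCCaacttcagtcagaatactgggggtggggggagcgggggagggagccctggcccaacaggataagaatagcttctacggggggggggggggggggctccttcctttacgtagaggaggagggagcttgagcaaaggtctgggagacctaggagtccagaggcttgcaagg
Col6a3: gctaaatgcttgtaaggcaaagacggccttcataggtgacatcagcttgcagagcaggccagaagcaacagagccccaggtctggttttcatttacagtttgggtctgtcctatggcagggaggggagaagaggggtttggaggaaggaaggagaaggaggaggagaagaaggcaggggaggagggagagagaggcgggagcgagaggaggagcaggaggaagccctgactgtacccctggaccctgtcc
Col1a2: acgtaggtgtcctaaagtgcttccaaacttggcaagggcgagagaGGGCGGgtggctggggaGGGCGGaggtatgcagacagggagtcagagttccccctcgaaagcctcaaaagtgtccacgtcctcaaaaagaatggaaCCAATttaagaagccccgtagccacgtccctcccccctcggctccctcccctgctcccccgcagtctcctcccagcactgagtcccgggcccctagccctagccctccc
The Col6a1 and Col6a3 stretches held none of these motifs, and the Col6a2 stretch held 1 GC box, 175 bases before the start. The stretch of the inner start listed for Col6a2, not shown, held 3 GC boxes, at 67, 15 and 11 bases. The Col1a2 stretch held 2 GC boxes, at 205 and 188 bases, and 1 CCAAT box at 109 bases before the start. Over all 32851 stretches of this length in the table, 32.7% held a GC box, 33.8% a CCAAT box and 12.4% a TATA box. Over the 38 stretches of collagen genes these shares were 57.9%, 34.2% and 13.2%.

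Col6a1, which encodes a short chain of the type VI molecule, measured 9.11, 8.88 and 9.10 on the log2 scale in intrakidney tumors 1, 2 and 3 and 9.81, 9.89 and 9.92 in subcutaneous tumors 1, 2 and 3. The groups were far apart, and the tumors of each group lay close together. The difference was -0.84 ± 0.09 (SE, n = 3 per group), or 1.79-fold lower, with adjusted p = 0.0191 by limma with Benjamini-Hochberg adjustment over all genes.

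Col6a2, the gene of the other short chain, measured 8.13, 8.23 and 8.24 in the intrakidney tumors and 8.85, 8.81 and 8.76 in the subcutaneous tumors. Its log2 fold change was -0.60 ± 0.07 (SE, adjusted p = 0.0280). Col6a3, the gene of the long chain, measured 8.56, 8.55 and 8.67 in the intrakidney tumors and 9.42, 9.27 and 9.27 in the subcutaneous tumors, and fell by 0.73 on the log2 scale with adjusted p = 0.0228. For all 3 genes every intrakidney tumor lay below every subcutaneous tumor, and the range among the intrakidney tumors was 0.11 to 0.23.

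Of cells known to make type VI collagen, fibroblasts, pericytes and smooth muscle had markers in both directions. Adipocyte markers all had the higher mean in intrakidney tumors. Of the fibroblast markers, given with type I collagen, 4 of 8 had a lower mean in intrakidney tumors. Of the pericyte and smooth muscle markers, 3 of 7 did. Among the latter, Rgs5 differed by -0.31 (adjusted p = 0.711), Acta2 by 0.37 (adjusted p = 0.140) and Tagln by 0.39 (adjusted p = 0.205). Groups did not overlap for 3 of these 7 with intrakidney above, against 8.41% of all genes. For 0 of the 7 did intrakidney lie wholly below, against 6.53%. Over 7 markers of pericytes and smooth muscle the mean was 8.06 to 8.18 in intrakidney and 7.99 to 8.10 in subcutaneous tumors, with 0 past the threshold. Over 5 adipocyte markers it was 6.69 to 6.78 against 6.10 to 6.32, and all 5 had a higher mean in intrakidney tumors. Groups did not overlap for 3 of the 5 with intrakidney above, against 8.41% of all genes. Only the lipid droplet gene Cidec passed (0.66, adjusted p = 0.0280). Adipoq differed by 1.14 (adjusted p = 0.0587) and Retn by 0.57 (adjusted p = 0.204). The part of these cells in the type VI values was not tested.

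The type VI chains that can take the place of the Col6a3 chain did not follow. Col6a4 differed by -0.07, Col6a5 by 0.15 and Col6a6 by -0.03 on the log2 scale, with 95% confidence intervals of -0.29 to 0.16, -0.13 to 0.43 and -0.27 to 0.21. Each of these intervals lies above the estimates for Col6a1, Col6a2 and Col6a3, although no test of the difference between chains was made. Col6a5 and Col6a6 had a further row on the array each, with differences of -0.03 and 0.05, and the row with the higher mean was used.

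Over all 44 chains, 3 fell and 0 rose past an adjusted p of 0.05, beside 0.231% of all genes called in either direction, 0.1% lower and 0.13% higher. At an unadjusted p under 0.05 there were 10 chains lower and 1 higher, against 3.71% and 4.72% of all genes. The intrakidney tumors all lay below the subcutaneous tumors for 13 of 44 chains, against 6.53% of all genes, and all above them for 1 chain (Col4a2), against 8.41% of all genes, or 14.9% of all genes in either direction. The median log2 fold change was -0.07 over the chains and -0.0058 over all genes. The differences were concentrated in a minority of chains: 32 of the 44 differed by less than 0.2 in either direction, as did 17471 of the 19938 genes. Of the chains, 34 had a lower mean in intrakidney tumors, as did 10374 of the 19938 genes. But only 18 chains did without intrakidney tumor 1, and the median over the chains was then 0.016, so both rested on 1 array.

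**Figure D1:**
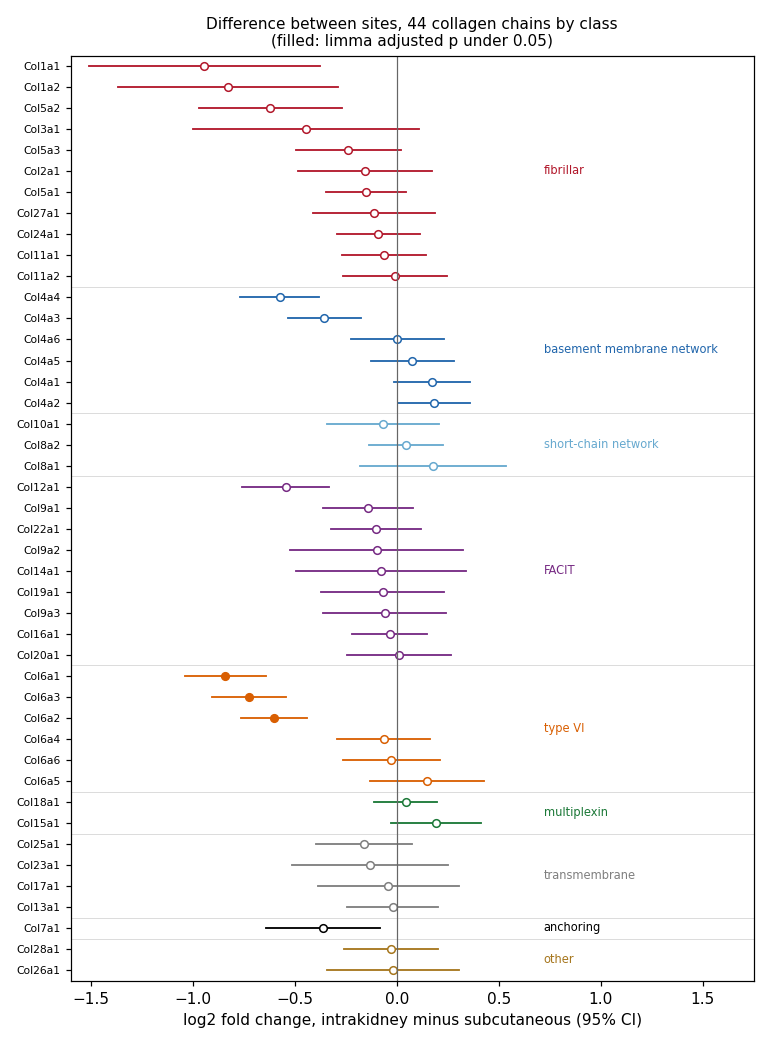
Log2 fold change (intrakidney minus subcutaneous, horizontal axis) with its 95% confidence interval for each of the 44 collagen chains, grouped and coloured by class, with filled circles for adjusted p under 0.05. Filled circles appear only for Col6a1, Col6a2 and Col6a3, while Col1a1 and Col1a2 lie as far to the left with wider intervals.

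The calls of single chains rested on few arrays. Without 1 array at a time, Col6a1, Col6a2 and Col6a3 kept log2 fold changes of -0.88 to -0.77, -0.62 to -0.57 and -0.77 to -0.68, but the number of chains past the threshold was 1 without intrakidney tumor 1 or 2 (Col6a1), 5 without intrakidney tumor 3 (Col1a1, Col1a2, Col5a2, Col6a1 and Col6a3), and 0 without subcutaneous tumor 1, 2 or 3. Without intrakidney tumors 2 and 3, which had the higher tubule values, the differences were -0.76, -0.67 and -0.76, with 1 intrakidney tumor left.

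Among fibrillar collagens, type I had the largest differences, and the intrakidney tumors were far apart from each other. Col1a1, the gene of the main type I chain, measured 10.93, 10.73 and 11.78 in intrakidney tumors 1, 2 and 3 and 12.19, 12.06 and 12.03 in the subcutaneous tumors. Intrakidney tumors 1 and 2 were low while tumor 3 was close to the subcutaneous group, though still below it. The log2 fold change was -0.94 ± 0.24 (SE, adjusted p = 0.300), which did not pass.

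Col1a2, the partner chain of type I, showed the same order, with 10.82, 10.57 and 11.57 against 11.94, 11.75 and 11.76. Its log2 fold change was -0.83 ± 0.23 (SE, adjusted p = 0.355). Col3a1, whose type III homotrimer lies in the same fibers, measured 10.33, 10.09 and 11.13 in the intrakidney tumors and 10.98, 10.94 and 10.97 in the subcutaneous tumors. For Col3a1 intrakidney tumor 3 was the highest of all 6 tumors, and the groups overlapped, with a difference of -0.45 and a 95% confidence interval of -0.999 to 0.11 (adjusted p = 0.695).

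Type V collagen sets the diameter of type I fibers. Col5a2 measured 7.95, 7.89 and 8.46 in the intrakidney tumors and 8.83, 8.67 and 8.66 in the subcutaneous tumors, again with intrakidney tumor 3 above the other two of its group. Its log2 fold change was -0.62 ± 0.15 (SE, adjusted p = 0.260). Its partner chain gene Col5a1 differed by -0.15 (95% confidence interval -0.35 to 0.05). The interval for Col5a2, -0.97 to -0.27, overlaps that of Col5a1, and no test of the difference between these chains was made. Col5a2 and Col3a1 are neighbours on the chromosome.

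Without intrakidney tumor 3, the differences of Col1a1, Col1a2 and Col5a2 were -1.26, -1.12 and -0.80 and passed with limma (adjusted p = 0.0138, 0.0293 and 0.0452), and Col3a1 differed by -0.75. With only intrakidney tumor 1 kept in that group, which leaves no spread within it, Col1a1 differed by -1.16.

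**Figure D2:**
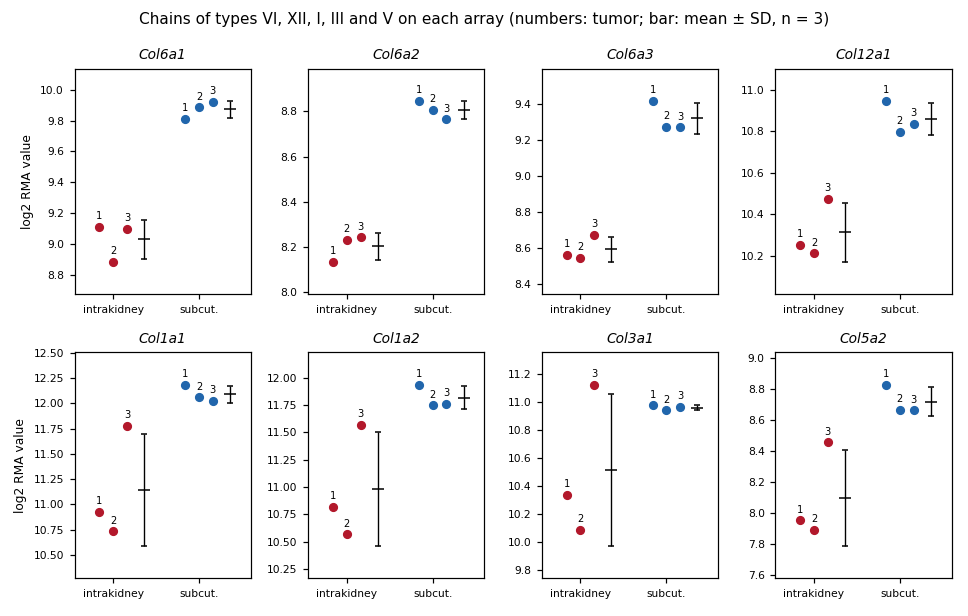
Log2 RMA value (vertical axis) of 8 collagen chains in each intrakidney (red) and subcutaneous (blue) tumor, numbered 1 to 3, with the mean ± SD of each group as a black bar. For Col6a1, Col6a2 and Col6a3 the 3 intrakidney tumors lie together, while for Col1a1, Col1a2, Col3a1 and Col5a2 intrakidney tumor 3 lies well above intrakidney tumors 1 and 2.

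Col1a1, Col1a2, Col3a1 and Col5a2 were spread widely among intrakidney tumors, with ranges of 0.57 to 1.04, where Col6a1, Col6a2 and Col6a3 were not. Intrakidney tumor 3 exceeded the mean of intrakidney tumors 1 and 2 by 0.94 for Col1a1, 0.92 for Col3a1, 0.87 for Col1a2, 0.61 for Col14a1 and 0.54 for Col5a2. These were the 5 of 44 chains past a gap of 0.5, a gap that 1.7% of all genes had. The same gap was 0.10 for Col6a1, 0.06 for Col6a2, 0.12 for Col6a3 and 0.24 for Col12a1. These values describe 1 tumor against 2 and have no test.

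Some fibroblast markers had the same gap and others did not. The mean over 8 fibroblast markers was 7.59, 7.47 and 8.02 at the kidney site and 7.69 to 7.86 under the skin, and 0 of the 8 passed. The gap of intrakidney tumor 3 was 0.85 for Lum and 1.15 for Dcn, both small proteoglycans that bind collagen fibers, and 1.17 for the matrix protein gene Dpt. It was 0.44 for the growth factor receptor gene Pdgfra, 0.04 for Pdgfrb, -0.05 for Fap and -0.06 for Thy1. Between sites, Lum differed by -1.07 (adjusted p = 0.204), Dcn by 0.46 (adjusted p = 0.781) and Pdgfrb by -0.06, so the markers did not share 1 direction. The part of fibroblast content in the collagen values was not tested.

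**Figure D3:**
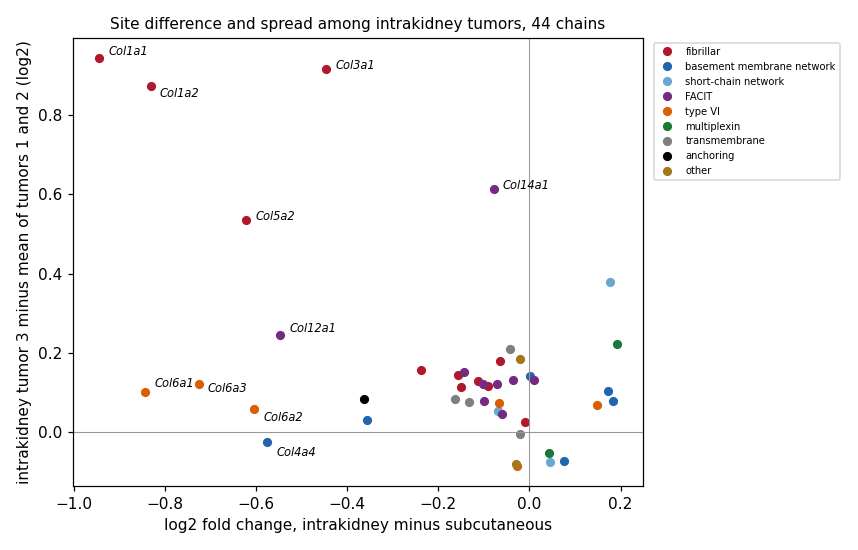
For each of the 44 collagen chains, the log2 fold change between sites (horizontal axis) against the log2 value of intrakidney tumor 3 minus the mean of intrakidney tumors 1 and 2 (vertical axis), coloured by class. Col1a1, Col1a2, Col3a1, Col5a2 and Col14a1 lie above 0.5 on the vertical axis, and the type VI chains Col6a1, Col6a2 and Col6a3 lie near 0.1 at similar horizontal positions to type I.

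The 6 fibrillar chains not yet described differed by -0.24 to -0.01. They are given to complete the class, after their values had been seen: Col5a3, a further type V chain, at -0.24, the cartilage chains Col2a1 at -0.16, Col11a1 at -0.06 and Col11a2 at -0.01, and Col24a1 and Col27a1, of developing bone and cartilage, at -0.09 and -0.11. Of the 11 fibrillar chains, all had a lower mean in intrakidney tumors, against 10374 of the 19938 genes. But 7 of these chains did without intrakidney tumor 1 and 10 without subcutaneous tumor 3. Groups did not overlap for 5 of the 11, all with intrakidney below, against 6.53% of all genes, and 0 passed. The median of the class was -0.16, or -0.08 without intrakidney tumor 1 and -0.23 without intrakidney tumor 2, and the mean over the class per tumor was 8.38, 8.53 and 8.83 in intrakidney and 8.93, 8.88 and 8.93 in subcutaneous tumors.

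Type IV chains went in different directions. Col4a1 and Col4a2 encode the chains of the common basement membrane network and lie head to head, with start sites 21 bases apart on opposite strands in RefSeq. Col4a2 measured 9.05, 9.14 and 9.17 in the intrakidney tumors and 8.997, 8.84 and 8.96 in the subcutaneous tumors, so the groups did not overlap. It differed by 0.18 ± 0.08 (SE, adjusted p = 0.583). Col4a1 measured 8.86, 9.05 and 9.06 against 8.86, 8.78 and 8.81, where intrakidney tumor 1 lay within the subcutaneous range, and differed by 0.17 (adjusted p = 0.639).

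Col4a3 and Col4a4, which are also neighbours, encode chains of the network of the glomerular basement membrane of kidney, together with Col4a5. Col4a4 measured 8.13, 8.35 and 8.21 in the intrakidney tumors and 8.82, 8.86 and 8.74 in the subcutaneous tumors. The intrakidney tumors, which grew in the organ where this network is known, all had the lower values. The log2 fold change was -0.58 ± 0.08 (SE, adjusted p = 0.0587), just short of the threshold. Col4a4 passed with an intensity trend and robust prior (adjusted p = 0.0121), without dim genes (adjusted p = 0.0208) and with array weights (adjusted p = 0.00552). It did not pass after quantile normalization (adjusted p = 0.0566), median centring (0.0502), with every row tested (0.212) or with the replicate block (0.150). Without 1 array at a time its adjusted p ran from 0.0647 to 0.358.

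Col4a3, included as the partner of Col4a4 after its values were seen, measured 7.34, 7.54 and 7.47 against 7.79, 7.77 and 7.86. The groups did not overlap, and the difference was -0.36 ± 0.08 (SE, adjusted p = 0.204). Col4a5 and Col4a6, neighbours on the X chromosome, differed by 0.08 and 0.002, with 95% confidence intervals of -0.13 to 0.28 and -0.22 to 0.23. The mean over 5 podocyte markers, genes of the cells that make the glomerular network, was 7.803 to 7.85 at the kidney site against 7.76 to 7.88. Of these markers 3 had a lower and 2 a higher mean in intrakidney tumors. Clic5 differed by -0.30 (adjusted p = 0.265), Podxl by 0.17 and Wt1 by 0.18. Groups did not overlap for 1 of the 5 (Clic5), with intrakidney below, against 6.53% of all genes. The part of podocytes in the Col4a3 and Col4a4 values was not tested.

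**Figure D4:**
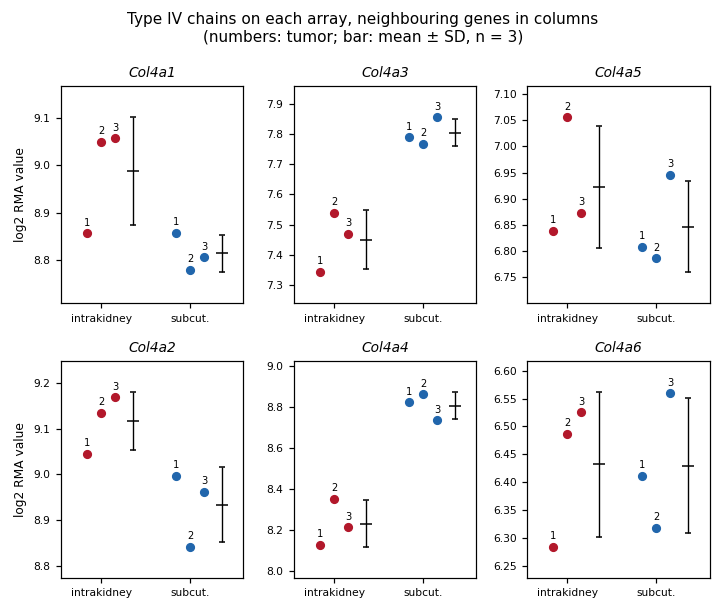
Log2 RMA value (vertical axis) of the 6 type IV chains in each intrakidney (red) and subcutaneous (blue) tumor, numbered 1 to 3, with mean ± SD as a black bar and neighbouring genes in the same column. Col4a3 and Col4a4 are lower in all 3 intrakidney tumors, Col4a1 and Col4a2 have the higher means there, and Col4a5 and Col4a6 overlap.

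Col15a1 and Col18a1, multiplexins of basement membranes whose C-terminal fragments include endostatin, differed by 0.19 (95% confidence interval -0.03 to 0.41) and 0.04 (-0.11 to 0.20). Col18a1 measured 9.79 to 9.83 in the subcutaneous and 9.81 to 9.89 in the intrakidney tumors, the narrowest range of the intrakidney tumors among the 44 chains. Like Col4a1, Col4a2 and Col15a1, all 8 endothelial markers had the higher mean in intrakidney tumors, though Col4a1 and Col15a1 overlapped between groups. Over the 8 genes the mean was 8.50 to 8.53 there against 8.11 to 8.27. For 6 of them the groups did not overlap, with intrakidney above, against 8.41% of all genes. Only Emcn passed, at 0.72 (adjusted p = 0.0460), and Pecam1 differed by 0.009. The part of endothelial cells in these chains was not tested.

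Among the FACIT collagens, Col12a1 stood out. It encodes type XII, which lies on type I fibers in dense connective tissue, and measured 10.25, 10.21 and 10.48 in the intrakidney tumors and 10.95, 10.80 and 10.84 in the subcutaneous tumors. The groups did not overlap, and the log2 fold change was -0.55 ± 0.09 (SE, adjusted p = 0.0967). Col12a1 passed with an intensity trend and robust prior (adjusted p = 0.0128), with array weights (adjusted p = 0.0364) and without dim genes (adjusted p = 0.0394). It did not pass after quantile normalization (adjusted p = 0.0938), median centring (0.105), with every row tested (0.327) or with the replicate block (0.222). Without 1 array at a time its adjusted p ran from 0.0989 to 0.399.

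Col14a1, the related type XIV chain, measured 7.75, 7.82 and 8.40 against 8.22, 8.11 and 7.88 and differed by -0.08 (95% confidence interval -0.49 to 0.34). Its groups overlapped, with intrakidney tumor 3 the highest of all. The other 7 FACIT chains differed by -0.14 (Col9a1) to 0.01 (Col20a1), and 0 of the 9 passed. They included Col16a1 at -0.04, the cartilage chains Col9a2 at -0.10 and Col9a3 at -0.06, Col19a1 at -0.07 and Col22a1, of muscle and tendon junctions, at -0.10. Intrakidney tumor 1 had the lowest value for 8 of the 9 FACIT chains.

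Col7a1, the chain of the fibrils that anchor epithelium to the dermis, measured 7.64, 8.09 and 7.95 in the intrakidney tumors and 8.22, 8.21 and 8.34 in the subcutaneous tumors. The groups did not overlap, and the difference of -0.36 ± 0.12 (SE) did not pass (adjusted p = 0.441). Epidermal markers (5 genes) averaged 5.96 to 6.27 at the kidney site and 6.03 to 6.22 under the skin, with 0 of the 5 past the threshold and differences of -0.08 to 0.11.

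The remaining chains differed by less than 0.2. The short-chain network collagens Col8a1 and Col8a2, of vessels and the eye, differed by 0.18 and 0.05, and Col10a1, of hypertrophic cartilage, by -0.07. The transmembrane collagens Col13a1, Col17a1 (of hemidesmosomes), Col23a1 and Col25a1 differed by -0.02, -0.04, -0.13 and -0.16, and Col26a1 and Col28a1 by -0.02 and -0.03. For Col8a1 the 95% confidence interval was -0.18 to 0.54. The values of these 9 chains ran from 5.73 to 8.19, and the files give no detection call, so whether they were expressed at all was not tested.

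The genes that modify, fold, process, bind and degrade collagen held 0 members past the threshold. For the counts of lower means below, 10374 of all 19938 genes had a lower mean in intrakidney tumors. Of 18 genes of chain modification and folding, 9 had a lower and 9 a higher mean in intrakidney tumors, with a median of -0.0056. Plod2, a lysyl hydroxylase that sets the type of crosslink, measured 7.10, 6.56 and 7.43 in the intrakidney tumors and 6.01, 6.15 and 5.68 in the subcutaneous tumors. Its groups did not overlap, and the difference of 1.09 ± 0.22 (SE) had adjusted p = 0.166. The lysyl hydroxylase genes Plod3 and Plod1 differed by 0.22 and -0.19 and the prolyl hydroxylase family gene P3h3 by -0.22. Groups did not overlap for 2 of the 18 genes with intrakidney above and 1 with intrakidney below, near the 8.41% and 6.53% of all genes.

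Of 11 genes of propeptide removal and crosslinking, 9 had a lower mean, with a median of -0.04. Tll1 and Bmp1, related proteinases that remove the C-terminal propeptide, differed by -0.31 (adjusted p = 0.420) and -0.11 (adjusted p = 0.757), and Adamts3, which removes the N-terminal propeptide, by -0.27 (adjusted p = 0.494). Lox, the main crosslinking oxidase, measured 10.62, 10.63 and 11.31 against 11.30, 11.28 and 11.05 and differed by -0.35 (adjusted p = 0.695). In intrakidney tumor 3 it stood 0.69 above the mean of the other two.

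Of 9 collagen receptor genes, 7 had a lower mean, with a median of -0.08. Itga1, an integrin subunit that binds type IV collagen, differed by 0.20, the tyrosine kinase receptor gene Ddr1 by -0.14, Itga11, an integrin subunit of fibroblasts that binds type I, by -0.21, and Itgb1, the beta subunit they share, by -0.09.

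Of 7 genes of collagen degradation, 5 had a lower mean, with a median of -0.34. Groups did not overlap for 4 of them with intrakidney below, against 6.53% of all genes. For 1 of the 7 (Mmp8) intrakidney lay wholly above, against 8.41% of all genes. Mmp2, a gelatinase that also cuts type IV, measured 10.33, 10.40 and 10.77 in the intrakidney tumors and 11.21, 11.33 and 11.18 in the subcutaneous tumors. Its difference was -0.74 ± 0.12 (SE, adjusted p = 0.0947). Mmp13, the main rodent interstitial collagenase, measured 8.95, 8.88 and 10.08 against 10.38, 10.39 and 10.24 and differed by -1.03 (adjusted p = 0.365), with intrakidney tumor 3 well above the other two. Mmp14, which activates the Mmp2 protein, differed by -0.38 (adjusted p = 0.256), and Mmp8, a collagenase of neutrophils, by 0.67 (adjusted p = 0.379).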

How the data were processed

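Each of 6 snap-frozen tumors gave total RNA for 1 Affymetrix array of the Mouse Gene 1.0 ST type. The deposited log2 values were summarised per probe set by the authors, for which the submitters' processing notes name RMA and affy. That the scale is log2 was read from the range of values, and for versions, settings and build the entry is: not given in the sources used here. RMA compresses changes of dim genes. Of 35512 rows, 21789 were paired with exactly 1 gene by the platform annotation. The row with the highest mean was kept for 999 genes with several rows, which left 19938 genes. The 44 chains had 46 rows, and 0 rows paired a chain with another gene. Levels were not compared between genes, since probes differ.

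The test was limma 3.58.1, run in R 4.3.3 (one mean per group, lmFit, eBayes, two-sided, Benjamini-Hochberg over all genes, threshold 0.05). Confidence intervals are those of the moderated fit. On simulated data over 19938 genes for this comparison, the share of changed genes recovered was 59.2% for a log2 change of 0.5, 98.2% for 1 and 99.8% for 2, and 4.60% of calls were false. The simulated noise was normal, independent between genes and equally wide in both groups. The tumors were not always so: Col1a1 had an SD of 0.55 in intrakidney and 0.08 in subcutaneous tumors. These shares therefore need not hold for the real comparison. Precision is set by the 3 arrays per group.

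The collagen chains, classes, pathway lists and markers were chosen with earlier results of these data known. Named chains were those past the threshold, the 10 largest increases and decreases, the 2 with the highest mean of each class and a fixed set of common chains, with up to 4 members of each pathway list by adjusted p. Others are named to complete a class. Of the pathway lists, 18 of 25, 11 of 13, 9 of 10 and 7 of 7 listed symbols were matched, several of the rest being older symbols of the same genes. The marker lists for pericytes, macrophages, adipocytes, cartilage, skeletal muscle and mesothelium had 0, 0, 1, 0, 0 and 0 members past the threshold. A planned count of repeats in the proteins was not made, since no protein sequences were used here. Alternatives were quantile normalization, median centring, no genes under the 40th percentile, every row, averaged rows, an intensity trend with robust prior, array weights, a replicate block, a threshold of 0.01 and leaving out each array. Leaving out intrakidney tumors 2 and 3 together was chosen after seeing the data. Where that leaves 1 intrakidney tumor, it is assumed to vary like the other group, so p-values and counts of calls are not given for it.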

Additional observations from a re-analysis of the deposited data

How the results depend on the processing

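The 3 type VI chains kept their direction in all settings run. They were the chains past the threshold after quantile normalization, median centring and averaging of rows (3 each). The number of collagen chains past the threshold was 5 without genes under the 40th percentile and with an intensity trend and robust prior. It was 6 with array weights, and 0 with every row tested, at an adjusted p of 0.01 and with the replicate block. It ran from 0 to 5 without 1 array each. With every row tested the smallest adjusted p of a chain was 0.110, and 2206 of all rows had an unadjusted p under 0.05. The number of all genes past the threshold, 46, was 101 without genes under the 40th percentile, 138 with an intensity trend and robust prior, 624 with array weights, 30 without intrakidney tumors 2 and 3, 5 at an adjusted p of 0.01, 0 with every row tested and 0 with the replicate block, and ran from 2 to 33 without 1 array each.

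With the replicate block, Col6a1, Col6a2 and Col6a3 had adjusted p = 0.0994, 0.135 and 0.112. The labels name no batch that same-numbered tumors share. Deviations of same-numbered tumors from their group means correlated at 0.37, -0.16 and 0.10 across genes, and those of differently numbered tumors at -0.44 to 0.43. With 3 tumors per group, these correlations cannot decide whether same-numbered tumors shared a batch.

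Without intrakidney tumors 2 and 3 the medians moved to -0.30 for all collagen chains, -0.47 for fibrillar, -0.077 for basement membrane, -0.17 for short-chain, -0.32 for FACIT, -0.45 for type VI, 0.042 for multiplexin and -0.33 for transmembrane chains. The signs of single chains were followed for the 27 chains of the naming rule only. Among these, in the same setting, the sign turned for Col4a5 (-0.0078), Col4a6 (-0.15), Col6a5 (-0.041), Col8a1 (-0.17) and Col20a1 (-0.23). Array weights favoured intrakidney tumor 3 (2.57, against 0.35 and 0.68 for intrakidney tumors 1 and 2). They also favoured subcutaneous tumor 2 (3.55, against 0.76 and 0.61 for subcutaneous tumors 1 and 3). With these weights the sign turned for Col13a1 (0.053), Col14a1 (0.13), Col16a1 (0.027) and Col26a1 (0.11). Without 1 array each, further signs of these chains changed: Col4a6 ran from -0.054 to 0.076, Col8a2 from -0.0019 to 0.085, Col13a1 from -0.078 to 0.065, Col14a1 from -0.28 to 0.041, Col16a1 from -0.080 to 0.0067, Col20a1 from -0.066 to 0.13, Col26a1 from -0.10 to 0.12 and Col28a1 from -0.11 to 0.015. The cause of these changes was not tested. Under quantile normalization and under median centring, 33 of 44 chains had the lower mean in intrakidney tumors, and with array weights 22, so chains outside the 27 turned too, against 34 in the values as deposited. Depth has no counterpart here: the number of arrays limits the precision, and dim chains carry no detection call.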
